A study of Mus musculus with 8 samples.

Results

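Besides the receptors of its own neurons, the mouse vomeronasal organ gave reads from genes of the main olfactory receptor family (symbols starting with Olfr), and 114 of the 739 such genes in the deposited table are described here. They were chosen by measured level: each had a mean of at least 0.2 TPM (a transcript level scaled for gene length and library size) over all 8 libraries. Olfr464, Olfr1350 and Olfr231 were left out by the same rule and reached means of 24.3, 12.7 and 3.65 TPM. The table held 27532 genes. By the receptor class given in the table, 6 of 56 class I genes and 108 of 683 class II genes were members of the set. The study compared the vomeronasal organs of 4 Tex15 heterozygous and 4 Tex15 knockout adult mice, one library per animal, so the controls also carried one mutant Tex15 allele. Heterozygous library 1 came from a male of 11.4 weeks, heterozygous library 2 from a female of 14.6 weeks, and heterozygous libraries 3 and 4 from females of 11.9 weeks. Knockout library 1 came from a female of 11.9 weeks, and knockout libraries 2, 3 and 4 from males of 11.9, 11.9 and 12.1 weeks. The animals behind heterozygous libraries 1 and 2 were numbered in earlier series and the remaining 6 in the 7100s. Values within those 6 are therefore given beside the pooled ones for the sum of each class and for the called genes. The last number in the sample titles, whose meaning the labels do not give, was 41825 and 42525 for heterozygous libraries 1 and 2, 102125 for knockout library 4 and 101725 for the other 5. No knockout library shared the number of heterozygous library 1 or 2. The design asks what differs in the organ when Tex15, a germ cell protein known for meiotic DNA repair and for silencing of transposons, is lost.

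Olfactory receptors are odorant-detecting proteins with 7 membrane-spanning helices, coupled to a G protein. In the main olfactory epithelium each mature neuron expresses a single receptor gene from a single allele, and the genes lie in clusters on many chromosomes. Class I receptors belong to the older, fish-like branch of the family and lie in a single cluster on mouse chromosome 7, and class II receptors make up the rest. Vomeronasal neurons mostly use other receptor families, but some olfactory receptors, Olfr692 among them, are known from neurons of this organ.

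The short coding stretch below shows what kind of gene was measured: it spans the inner end of the third transmembrane helix, where most family members encode aspartate, arginine and tyrosine. It is given for the class I gene Olfr692, the member with the highest mean, and for the 4 protein-coding genes that rose in knockout libraries. The capitals mark the 3 codons at that motif, and the sequences are the coding strand of GENCODE M21 transcripts (mouse build GRCm38), 5′ to 3′.
Olfr692: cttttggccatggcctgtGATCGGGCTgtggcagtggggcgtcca
Olfr78: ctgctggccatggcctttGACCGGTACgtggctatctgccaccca
Olfr1339: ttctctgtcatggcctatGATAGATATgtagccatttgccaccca
Olfr11: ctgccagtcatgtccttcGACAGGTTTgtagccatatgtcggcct
Olfr447: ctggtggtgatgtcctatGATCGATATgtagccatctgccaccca
Olfr78, Olfr1339 and Olfr447 encode the exact aspartate-arginine-tyrosine motif here, whereas Olfr692 and Olfr11 do not. Between pairs of these 45-base stretches, identity ranged from 55.6% for Olfr692 and Olfr11 to 80.0% for Olfr1339 and Olfr447. The class I pair, Olfr692 and Olfr78, matched at 68.9% of bases. Of the 114 members, 113 had an open reading frame of at least 250 codons in an annotated transcript, with a median of 318.5 codons in class I and 312 in class II, and 93 encoded the exact motif.

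Recovered depth ran from 17888709 reads (knockout library 1) to 26419463 (heterozygous library 1). At 2 kb of exon sequence 3 reads were worth 0.0916 to 0.163 TPM, and lower values lie within counting error. In knockout library 1, 2988 genes were at 0, and in the other 7 libraries 1287 to 1808. Tex15 itself was at 2.52 ± 0.279 TPM (SD, n = 4) in heterozygous and 1.09 ± 0.155 TPM (SD, n = 4) in knockout libraries, with no overlap between groups. It was not called after adjustment (limma adjusted p = 0.756). Markers of other tissues separated heterozygous library 2 from the rest: the summed level of 5 supporting-cell genes of the main olfactory epithelium was 4854 TPM there and 1026 to 1749 TPM in the other 7 libraries. The vomeronasal G protein genes Gnai2 and Gnao1 were lowest in that library, at 114 and 11.5 TPM, against 175 to 302 TPM and 16.8 to 30.7 TPM in the others. Omp, the marker of mature olfactory and vomeronasal neurons, was at 66.6 TPM in heterozygous library 1 and at 571 to 943 TPM in the other 7. No gene was called from the marker lists of vomeronasal neurons, supporting cells, B and plasma cells, T cells, macrophages or erythrocytes.

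In knockout libraries 5 members rose (class I gene Olfr78 and class II genes Olfr1339, Olfr11, Olfr447 and Olfr258-ps1) and 1 fell (Olfr124). Of the 5 that rose, 3 (Olfr11, Olfr447 and Olfr258-ps1) had a heterozygous mean under 0.2 TPM and so were in the set only because of their knockout level. As a description of genes picked for rising, the 5 summed to 0.903, 1.59, 1.25 and 1.13 TPM in heterozygous libraries 1 to 4 and to 26.2, 37.5, 36.4 and 33.2 TPM in knockout libraries 1 to 4. Of the 23477 genes tested, 0.503% were called in either direction, 0.17% higher and 0.332% lower. A gene was called at a Benjamini-Hochberg adjusted p under 0.05 over all genes tested, from limma on log2(TPM + 0.5) with genotype and sex as terms. Genotype log2 fold changes of genes below are relative to the median gene, while their SE and p-values are those of the fitted coefficient before that shift, and sex differences are given as fitted. The median gene's own genotype coefficient was 0.18 in the deposited values and −0.01 once libraries were scaled by their median ratio. The unadjusted p was under 0.05 for 26 members, 11 of them higher, and for 3.46% of all genes tested. Without the sex term it was under 0.05 for 53 members, 10 of them higher, and for 811 of the 23477 genes. Members were chosen by level, so these counts are no test of the set. With 1 male among the heterozygous and 1 female among the knockout animals, libraries weighed unequally in the genotype coefficient. Heterozygous library 1 and knockout library 1 each weighed 0.5 and every other library 0.167. Where a fit with the sex term leaves out heterozygous library 1, as within the 7100s animals, its knockout side is knockout library 1 alone. Without knockout library 1 its heterozygous side is heterozygous library 1 alone.

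**Figure D1:**
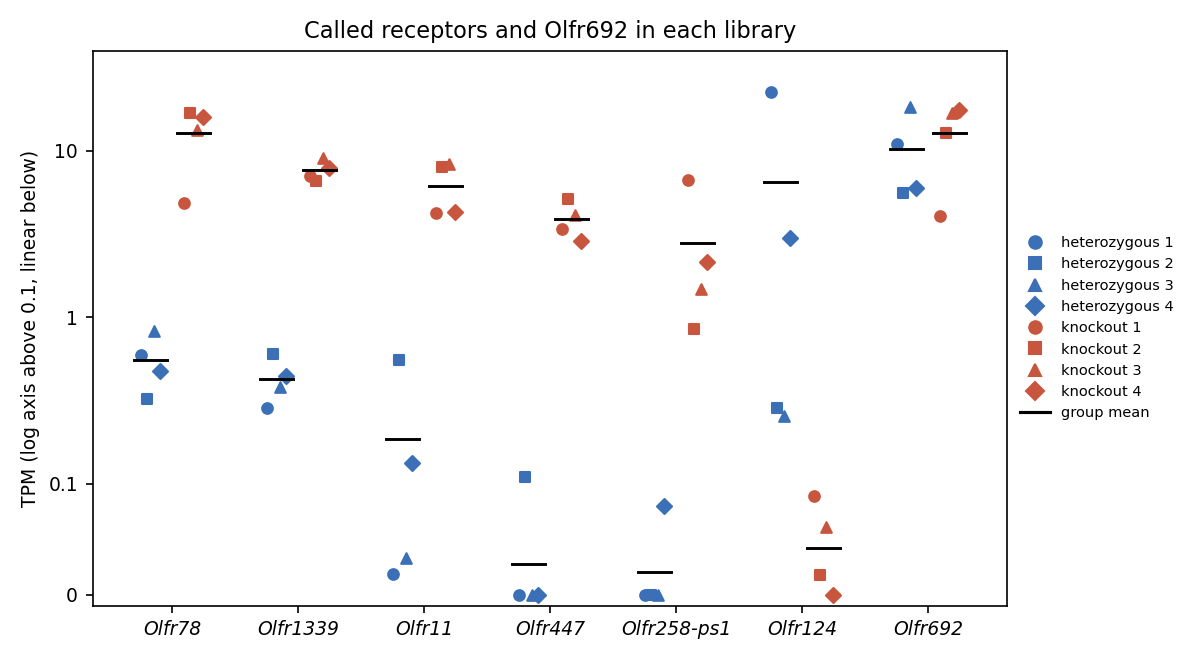
Level in TPM of the 6 receptor genes called by genotype and of Olfr692 in each library (blue: 4 heterozygous, red: 4 knockout; marker shape: library number; black bar: group mean), on an axis that is logarithmic above 0.1 and linear below. The knockout libraries lie above every heterozygous library for Olfr78, Olfr1339, Olfr11, Olfr447 and Olfr258-ps1, heterozygous library 1 at 22.5 TPM stands apart for Olfr124, and the groups overlap for Olfr692.

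Olfr1339 (OTTMUSG00000008740, chr4:118732175-118736906, plus strand) was at 0.286, 0.599, 0.383 and 0.441 TPM in heterozygous libraries 1 to 4 and at 7.10, 6.56, 9.08 and 7.85 TPM in knockout libraries 1 to 4. The groups did not overlap, and the 4 knockout libraries lay close together. The means were 0.427 ± 0.131 and 7.65 ± 1.09 TPM (SD, n = 4 each), a ratio of 17.9 between means, from 56 reads in the heterozygous and 838 in the knockout group. Its log2 fold change was 3.0 (SE 0.39, limma adjusted p = 0.000326). It was called in all 21 alternative fits, with a highest adjusted p of 0.0247. Within the 7100s animals the log2 fold change was 3.38 with the sex term (limma adjusted p = 0.00126) and 3.33 without it (adjusted p = 0.000236).

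Olfr447 (OTTMUSG00000057460, chr6:42908878-42914273, plus strand) was listed at 0 in heterozygous libraries 1, 3 and 4 and at 0.109 TPM, 5 reads, in library 2. Knockout libraries 1 to 4 had 3.37, 5.14, 4.14 and 2.86 TPM, or 104, 196, 140 and 97 reads. Every knockout library was therefore far above the highest heterozygous one. The log2 fold change on the log2(TPM + 0.5) scale was 2.82 (SE 0.37, limma adjusted p = 0.000326), which understates a rise from a level near 0. It too was called in all 21 alternative fits, with the same highest adjusted p of 0.0247. Within the 7100s animals it was 3.27 with the sex term (limma adjusted p = 0.00274) and 3.28 without (adjusted p = 0.000376).

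Olfr11 (OTTMUSG00000000439, chr13:21636623-21642518, minus strand) was at 0.0187, 0.555, 0.0334 and 0.133 TPM in heterozygous libraries 1 to 4 and at 4.21, 7.98, 8.30 and 4.28 TPM in knockout libraries 1 to 4. The groups were apart, and heterozygous library 2 held 26 of the 33 heterozygous reads. Means were 0.185 ± 0.252 and 6.19 ± 2.25 TPM (SD, n = 4 each), a ratio of 33.5, or 100.4 without heterozygous library 2, where the other 3 hold 7 reads. The Olfr11 coefficient was 3.07 on the log2 scale (SE 0.44, limma adjusted p = 0.000727). Without heterozygous library 1 it was 2.81 and not called, with knockout library 1 (4.21 TPM) alone on the knockout side. In the 7100s animals the log2 fold change was 3.33 with the sex term (limma adjusted p = 0.00291) and 3.64 without (adjusted p = 0.000341).

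Olfr78 (OTTMUSG00000060054, chr7:102738511-102759471, minus strand) is a class I receptor known for responding to short-chain fatty acids and for its expression in blood vessels and the carotid body. Its level was 0.597, 0.323, 0.831 and 0.475 TPM in heterozygous libraries 1 to 4 and 4.85, 17.0, 13.4 and 16.1 TPM in knockout libraries 1 to 4. All 4 knockout libraries were higher than the heterozygous ones, and knockout library 1, the female, was the lowest of them. Means were 0.557 ± 0.214 and 12.8 ± 5.54 TPM (SD, n = 4 each), a ratio of 23.1, from 166 reads in the heterozygous and 3405 in the knockout group. For Olfr78 the log2 fold change was 2.94 (SE 0.43, limma adjusted p = 0.000898). Without heterozygous library 1 it was 2.46 and not called, with knockout library 1 (4.85 TPM) alone on the knockout side. Within the 7100s animals it was 2.55 with the sex term (limma adjusted p = 0.0206) and 3.59 without (adjusted p = 0.00142). Olfr78 shares 926 exon bases on the same strand with Olfr560, so reads there could be split between them. Olfr560 itself was at a knockout mean of 0.02 TPM.

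Olfr258-ps1 (OTTMUSG00000050216, chr1:174140408-174143254, plus strand), a transcribed pseudogene, was listed at 0 in heterozygous libraries 1 to 3 and had 1 read (0.0800 TPM) in library 4. Knockout libraries 1 to 4 had 6.66, 0.846, 1.47 and 2.16 TPM, from 70, 11, 17 and 25 reads. The groups did not overlap, but knockout library 1 held 59.4% of the summed level. The log2 fold change was 2.67 (SE 0.42, limma adjusted p = 0.00159). Without knockout library 1, and so with heterozygous library 1 alone on the heterozygous side, it was 1.51 and no longer called. Within the 7100s animals it was 4.05 with the sex term, where knockout library 1 alone makes the knockout side. Without that term it was 2.49 and not called (limma adjusted p = 0.0861). The gene lies 19.2 kb from the left-out receptor Olfr231, which was at 0.0117 to 0.0837 TPM in heterozygous and 4.74 to 12.0 TPM in knockout libraries.

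Olfr124 (OTTMUSG00000037475, chr17:37799888-37808617, plus strand) was at 22.5, 0.283, 0.257 and 2.99 TPM in heterozygous libraries 1 to 4 and at 0.0885, 0.0179, 0.0605 and 0 TPM in knockout libraries 1 to 4. The groups did not overlap, yet heterozygous library 1 alone held 85.9% of the summed level, with 1718 reads, and library 4 had 161. The fitted log2 fold change was −3.46 (SE 0.70, limma adjusted p = 0.0384). Without heterozygous library 1 it was −1.04 with an adjusted p of 1.0. Within the 7100s animals it was −1.15 with the sex term (limma adjusted p = 0.531) and −1.41 without (adjusted p = 0.353). It was called in 10 of 21 alternative fits. The call and the size thus depend on heterozygous library 1, although the other 3 heterozygous libraries also lay above every knockout library.

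Olfr genes next to the 4 protein-coding members that rose stayed below 1 TPM on average in knockout libraries. Within 100 kb of Olfr447 lay 4 other Olfr genes, none with a higher knockout mean and the highest at 0.053 TPM. Olfr78 had 5 such neighbours, of which Olfr558 alone had a higher knockout mean, 0.341 TPM against 0.155 TPM, with overlapping groups. Olfr1339 had 4, of which 2 had a higher knockout mean and 0 were without overlap. Olfr11 had 7, of which 3 had a higher knockout mean. Among these 3, Olfr1361, which lies 14.4 kb away, was at 0, 0.549, 0.039 and 0 TPM in heterozygous libraries 1 to 4 and at 1.29, 1.29, 0.708 and 0.269 TPM in knockout libraries 1 to 4, so its groups overlapped. Olfr1366, at 93.8 kb, was at 0.133, 0.261, 0 and 0.0541 TPM in heterozygous and 0.580, 0.365, 0.382 and 0.439 TPM in knockout libraries. Its groups did not overlap, but its log2 fold change of 0.50 (SE 0.31) was not called (limma adjusted p = 0.999). It was not called in the 7100s animals either, at 1.35 with the sex term (limma adjusted p = 0.625) and 1.01 without (adjusted p = 0.650).

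Beyond these, Olfr877 and Olfr1366 completed the 7 members whose 4 knockout libraries all lay above the 4 heterozygous ones, against 0.664% of all genes tested. Nothing is read from that count, since 5 of the 7 had a heterozygous mean under 0.2 TPM and entered the set only through the knockout group where they were high. Olfr877 had 0.0221, 0, 0 and 0 TPM in heterozygous libraries 1 to 4 and 1.35, 0.272, 0.341 and 0.136 TPM in knockout libraries 1 to 4, with knockout library 1 holding 63.6% of the sum. It was called with limma-voom on recovered reads (limma-voom adjusted p = 0.0463). In the 7100s animals with the sex term, where knockout library 1 alone makes the knockout side, its log2 fold change was 2.20. Its neighbour Olfr145 was also highest in knockout library 1, with knockout values of 1.29, 0.111, 0.471 and 0.207 TPM, but heterozygous library 2 had 0.236 TPM. Olfr463, 15.9 kb from the left-out Olfr464, was at 0, 0.328, 0 and 0.0817 TPM in heterozygous and 1.22, 0.354, 0.753 and 0.309 TPM in knockout libraries. Both Olfr145 and Olfr463 were called only by limma-voom without heterozygous library 2 (adjusted p = 0.0202 and 0.0377).

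Olfr692 (OTTMUSG00000060487, chr7:105368230-105369355, plus strand) was the highest member in both groups. It was at 10.96, 5.57, 18.5 and 6.01 TPM in heterozygous libraries 1 to 4 and at 4.04, 12.8, 17.0 and 17.7 TPM in knockout libraries 1 to 4. The groups overlapped throughout their range, with means of 10.3 ± 6.004 and 12.9 ± 6.27 TPM (SD, n = 4 each). The fitted log2 fold change was −0.43 (SE 0.46, limma adjusted p = 0.999), opposite in sign to the difference between the means. The fit gives a weight of 0.5 each to heterozygous library 1 (10.96 TPM) and knockout library 1 (4.04 TPM), and its value is relative to the median gene, so no direction is read from it. In the 7100s animals it was −0.98 with the sex term and 0.26 without, called in neither (limma adjusted p = 0.529 and 0.986). The fitted level in males was 1.08 higher on the log2 scale (SE 0.46), which was not called (limma unadjusted p = 0.0312, adjusted p = 0.99995), and the female heterozygous library 3 had the highest value of all 8.

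Summed over the 6 class I members, the level was 11.8, 13.0, 19.8 and 7.10 TPM in heterozygous libraries 1 to 4 and 9.46, 30.1, 31.1 and 34.4 TPM in knockout libraries 1 to 4. Knockout library 1 lay within the heterozygous range and the other 3 knockout libraries above it, for a log2 ratio of group means of 1.02, and 0.96 within the 7100s. Without Olfr78 the remaining 5 class I genes summed to 12.4 ± 5.11 and 13.4 ± 6.32 TPM (SD, n = 4 each), of which Olfr692 made up 10.3 and 12.9 TPM. In heterozygous library 2 it was 5.57 of 12.6 TPM. The other 4 were low on average. Olfr558, also a receptor known for short-chain fatty acids, was at 0.155 ± 0.0966 and 0.341 ± 0.208 TPM, and Olfr556 at 0.381 ± 0.339 and 0.178 ± 0.0919 TPM, with overlapping groups for both. An antisense gene overlaps exons of Olfr558. Olfr672 and Olfr665 were carried by heterozygous library 2, at 4.44 and 1.64 TPM there. Olfr672 was listed at 0 in all 4 knockout libraries and Olfr665 at up to 0.0947 TPM.

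**Figure D2:**
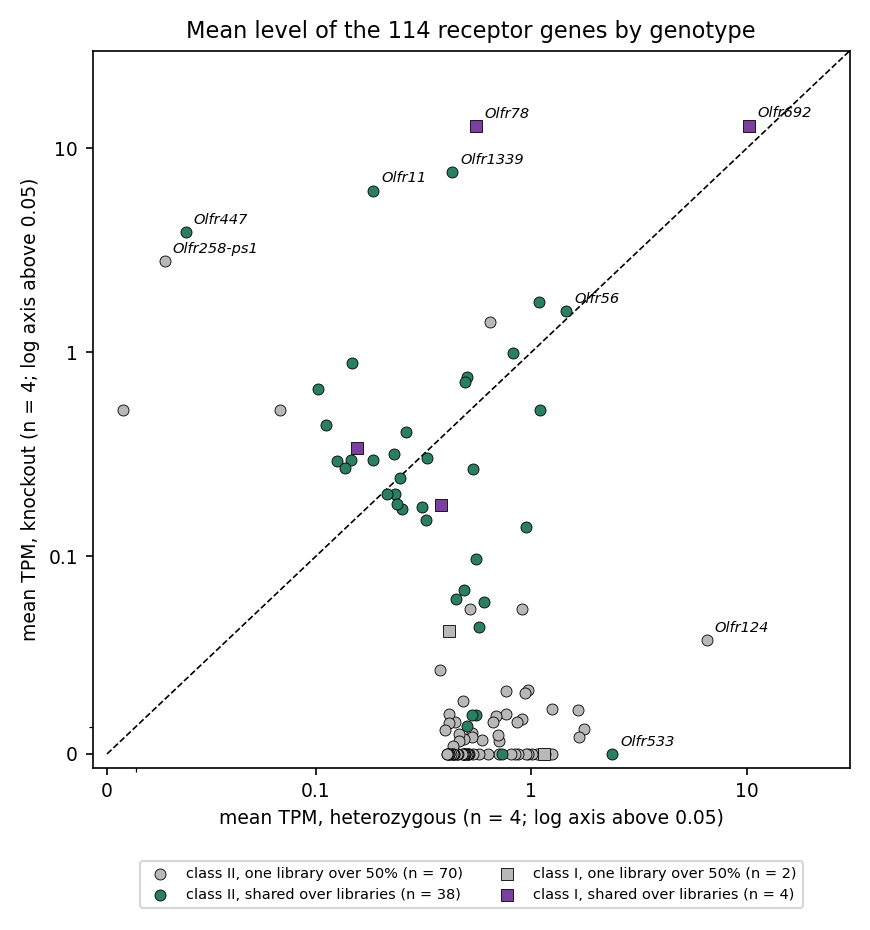
Mean TPM of each of the 114 receptor genes in heterozygous (x axis) and knockout libraries (y axis), n = 4 each, on axes that are logarithmic above 0.05 and linear below; squares are class I, circles class II, grey symbols are genes with more than 50% of their summed level in 1 library, and the dashed line marks equal means. The 5 genes that rose lie far above the line, Olfr692 lies near it, and a dense group of grey symbols lies along the bottom, including 37 of the 39 genes listed at 0 in all knockout libraries.

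Most of the 108 class II members owed their level to 1 library. A member was counted as carried by a single library where that library held more than 50% of its summed TPM, which was so for 72 of 114 members, 70 of class II and 2 of class I. Heterozygous library 2 carried 49 of them, heterozygous library 4 carried 16, heterozygous library 1 carried 3 and knockout library 1 carried 4. None of the other 4 libraries carried any. By group, 84 members reached a mean of 0.2 TPM in the heterozygous group only, 13 in the knockout group only and 17 in both. Without heterozygous library 2 only 54 of the 114 would have kept a mean of 0.2 TPM over the remaining 7, and without heterozygous library 4 it would have been 91, whereas leaving out any other single library kept 110 to 113.

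The 42 shared members, class I included, summed to 19.8, 33.5, 38.4 and 27.8 TPM in heterozygous libraries 1 to 4 and to 37.4, 61.2, 65.4 and 62.2 TPM in knockout libraries 1 to 4. With the 4 shared genes that rose set aside, a choice made after their values were seen, the other 38 summed to 28.7 ± 7.80 and 26.01 ± 6.21 TPM (SD, n = 4 each). Of the 42, 17 lay above the median gene and 25 below, with a median log2 fold change of −0.12, against 0 over all genes tested. Over all 114 members 93 lay below and 21 above, with a median of −0.65, but this moved with the animals used: 27 lay above without heterozygous library 2, 58 within the 7100s, sex term kept, and 80 in a fit with animal series as a term.

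Of the 10 shared members with the highest means, 4 class II genes overlapped between groups, with group means of 0.523 to 1.76 TPM. Olfr56 was at 1.45 ± 0.856 and 1.60 ± 0.696 TPM (SD, n = 4 each), Olfr289-ps1 at 1.08 ± 1.07 and 1.76 ± 0.842 TPM, and Olfr1372-ps1 at 0.825 ± 0.222 and 0.991 ± 0.413 TPM. Olfr99 was at 1.10 ± 1.05 and 0.523 ± 0.417 TPM. Olfr289-ps1 rested on 5, 2, 9 and 2 reads in heterozygous libraries 1 to 4 and 8, 10, 8 and 2 reads in knockout libraries 1 to 4. Groups overlapped for these 4, and none was called (limma adjusted p = 0.999 for each). Olfr56 shares 111 exon bases on the same strand with the interferon-induced gene Ifi47.

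Of the shared members whose knockout libraries all lay below the heterozygous ones, Olfr533 had the largest fitted difference. Olfr533 (chr7:140463370-140468128, plus strand) was at 0.148, 4.04, 0.756 and 4.52 TPM in heterozygous libraries 1 to 4, or 7, 167, 20 and 150 reads, and at 0 in the 4 knockout libraries. Its pooled level was at least 95.7-fold lower in knockout, taking a floor of 3 reads over the group. The heterozygous libraries themselves ranged widely, and the log2 fold change of −1.68 (SE 0.51) was not called (limma adjusted p = 0.570). In the 7100s animals it was called without the sex term (−2.15, adjusted p = 0.0265) and not with it (−2.01, adjusted p = 0.0505). Without heterozygous library 1, where knockout library 1 alone makes the knockout side, its log2 fold change was −2.54. Without knockout library 1, where heterozygous library 1 (0.148 TPM) alone makes the heterozygous side, it was −0.81. These were the lowest and highest values with 1 library left out. Olfr192, annotated as a polymorphic pseudogene and with 73.9% of its 75-base windows found nowhere else among annotated transcripts, was at 0.316, 0.540, 0.657 and 1.42 TPM in heterozygous libraries 1 to 4 and 0 in the knockout libraries. That is at least 11.4-fold lower by the same floor, and it was called only in the 7100s animals without the sex term (−1.39, limma adjusted p = 0.0311). Olfr1389 was at 0.573 ± 0.121 and 0.0468 ± 0.0627 TPM, Olfr722 at 0.529 ± 0.319 and 0.0143 ± 0.0287 TPM, and Olfr449 at 0.503 ± 0.238 and 0.0103 ± 0.0206 TPM (SD, n = 4 each). These 3 were not called (limma adjusted p = 0.422, 0.999 and 0.832), nor in the 7100s animals, where their log2 fold changes were −0.33, −0.78 and −0.69 with the sex term and −0.70, −0.88 and −0.80 without.

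All 4 knockout libraries lay below the heterozygous ones for 23 members, against 1.01% of all genes tested, and 39 members were listed at 0 in all 4 knockout libraries, against 0.209%. Of those 39, 37 were carried by a single library. No member was listed at 0 in all heterozygous libraries, against 0.0596% of genes tested. As members were chosen by level, 84 of them on their heterozygous level alone, these counts describe the set and are not a test of genotype. In reads, 68 members had fewer than 3 in every knockout library, 2 had fewer than 3 in every heterozygous library, and 16 had at least 3 in all 8.

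**Figure D3:**
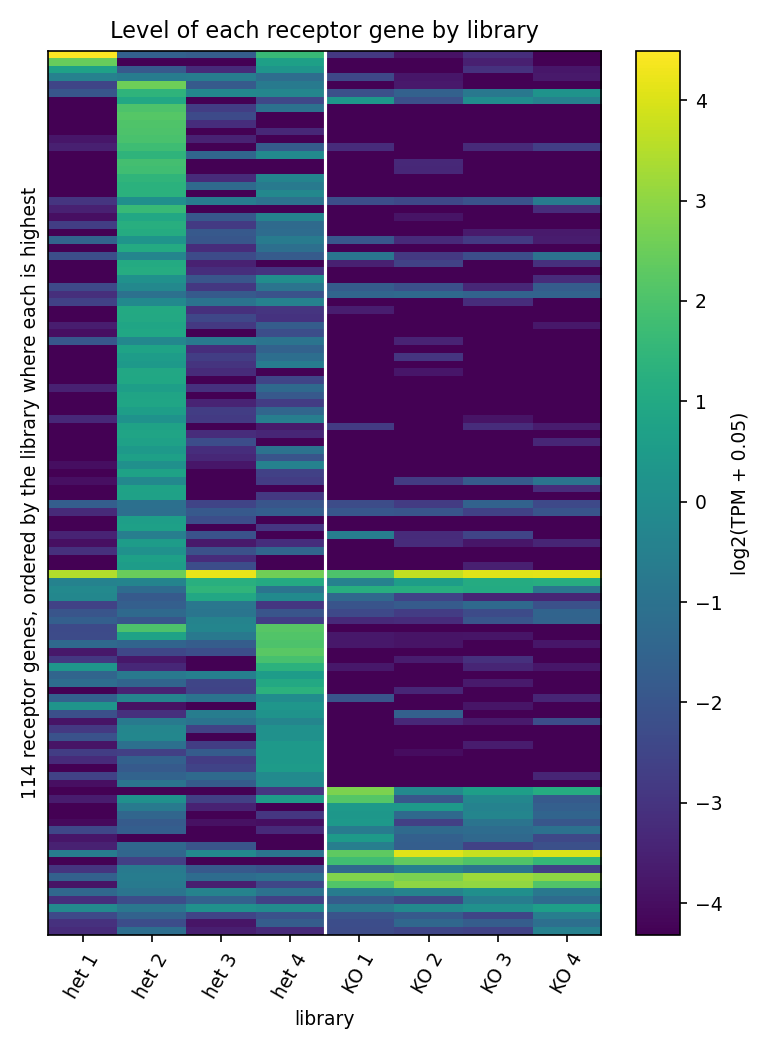
Level of each of the 114 receptor genes (rows, ordered by the library where each is highest) in the 8 libraries (columns, 4 heterozygous left of the white line and 4 knockout right of it), as log2(TPM + 0.05). The block of 63 genes highest in heterozygous library 2 is mostly dark in the knockout libraries, and a band of bright rows at the bottom right holds the genes that rose.

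The 49 members carried by heterozygous library 2 summed to 108 TPM there, to 0.571, 3.85 and 12.0 TPM in heterozygous libraries 1, 3 and 4, and to 0.216 to 0.463 TPM in the knockout libraries. Heterozygous library 4 was second highest for 33 of them, and 31 were at 0 in all 4 knockout libraries. By mean the leading ones were Olfr309, at 5.73 TPM in library 2 and 0.1299 to 0.553 TPM in the other heterozygous libraries, and Olfr1110, at 4.08 TPM and 0 to 0.439 TPM. The 16 carried by heterozygous library 4 summed to 34.1 TPM there, to 2.52 to 5.91 TPM in the other heterozygous libraries and to 0.072 to 0.208 TPM in the knockout libraries. They included Olfr166 (4.28 TPM in library 4), Olfr536 (4.05 TPM) and Olfr727 (4.68 TPM). Both sets were defined by where their genes were high, so the sums in other libraries are given as a description.

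Heterozygous library 1 carried Olfr124, Olfr1509 and Olfr455. Olfr1509, a receptor known for the urinary odorant (methylthio)methanethiol, was at 5.45, 0, 0 and 1.55 TPM in heterozygous libraries 1 to 4 and at 0 in the knockout libraries except for 0.0365 TPM in library 3. Heterozygous library 1 held 77.5% of its summed level. It was not called (log2 fold change −2.29, SE 0.55, limma adjusted p = 0.162), but was called without heterozygous library 2, 3 or 4 (adjusted p from 0.00915 to 0.0452). Without knockout library 1, where heterozygous library 1 alone makes the heterozygous side, its log2 fold change was −3.97. In the 7100s animals it was −0.70 with the sex term. Without that term it was −0.81 and not called (limma adjusted p = 0.972). The 4 members carried by knockout library 1 were Olfr513, Olfr258-ps1, Olfr877 and Olfr145, with a sum of 13.7 TPM there and 1.44 to 3.08 TPM in the other knockout libraries. Olfr513 was at 4.43 TPM in knockout library 1, at 0.206 to 0.789 TPM in the other knockout libraries and at up to 1.41 TPM in heterozygous ones, and it was not called (limma adjusted p = 0.492).

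Over all 108 class II members the sum was 42.1, 136, 25.4 and 73.9 TPM in heterozygous libraries 1 to 4 and 42.0, 33.0, 38.0 and 31.2 TPM in knockout libraries 1 to 4. Knockout libraries lay within the heterozygous range, and the log2 ratio of group means was −0.94, −0.46 within the 7100s and −0.39 without heterozygous library 2. Without the 70 class II genes carried by a single library the sign turned, and the 38 shared ones summed to 18.5 ± 7.78 against 30.3 ± 3.08 TPM (SD, n = 4 each), a log2 ratio of 0.71. With Olfr1339, Olfr11 and Olfr447 also set aside, genes picked because they rose, the other 35 shared class II genes had a heterozygous sum of 17.9 ± 7.43 TPM and a knockout sum of 12.6 ± 0.872 TPM (SD, n = 4 each), with overlapping groups.

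The number of members with at least 3 reads was 46, 106, 55 and 82 in heterozygous libraries 1 to 4 and 39, 39, 36 and 33 in knockout libraries 1 to 4. These counts describe genes chosen by level and are not a test of genotype. Among the 622 Olfr genes below a mean of 0.2 TPM, which the set does not include, the number was 79, 576, 97 and 221 in heterozygous and 32, 29, 26 and 34 in knockout libraries. Some markers of main olfactory neurons moved with these counts and others did not. Of the 13 genes on the list, 7 were highest in heterozygous library 2, 3 were lowest there and 4 had a higher knockout mean. Cnga2, the subunit of the odor-gated channel of these neurons, was at 5.70, 27.3, 3.24 and 13.5 TPM in heterozygous libraries 1 to 4 and at 6.27, 2.81, 2.58 and 1.27 TPM in knockout libraries 1 to 4. Gnal, their G protein, was at 3.99, 14.7, 1.48 and 5.57 TPM and at 3.72, 1.59, 1.66 and 0.815 TPM. Stoml3, a membrane protein gene of these neurons, was at 34.6, 143, 26.4 and 70.2 TPM in heterozygous and 25.7, 13.7, 21.4 and 20.1 TPM in knockout libraries. Its groups did not overlap, and it alone of the 13 had an unadjusted limma p under 0.05 (log2 fold change −1.30, adjusted p = 0.999). The receptor export gene Rtp1 was lowest of all 8 libraries in heterozygous library 2, at 85.4 TPM against 98.8 to 179 TPM. The chloride channel gene Ano2 was lowest there too, at 17.0 TPM against 17.3 to 30.04 TPM. So were the vomeronasal genes Gnai2 and Gnao1, at 114 and 11.5 TPM. Which neurons the Rtp1 and Ano2 reads came from was not tested. Heterozygous libraries 2 and 4, which carried 65 of the 72 single-library members, were highest in Cnga2. Knockout library 1 had more Cnga2 than heterozygous libraries 1 and 3 and fewer members with 3 reads, 39 against 46 and 55. It also had the fewest reads of all 8 libraries. As 84 members entered the set on their heterozygous level alone, nothing is read from this comparison. The summed level of the 13 genes on the list was 284 to 482 TPM in heterozygous and 268 to 370 TPM in knockout libraries. Rtp1 alone made up 85.4 to 179 TPM of it. None of the 13 was at 0 in any library or called in either direction. The supporting-cell gene Cyp2g1 was at 758 TPM in heterozygous library 2 and at 20.1 to 84.7 TPM in the other 7. The part of these markers in the receptor levels was not tested, and in these whole-organ samples fewer cells of a type and less RNA per cell cannot be told apart.

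**Figure D4:**
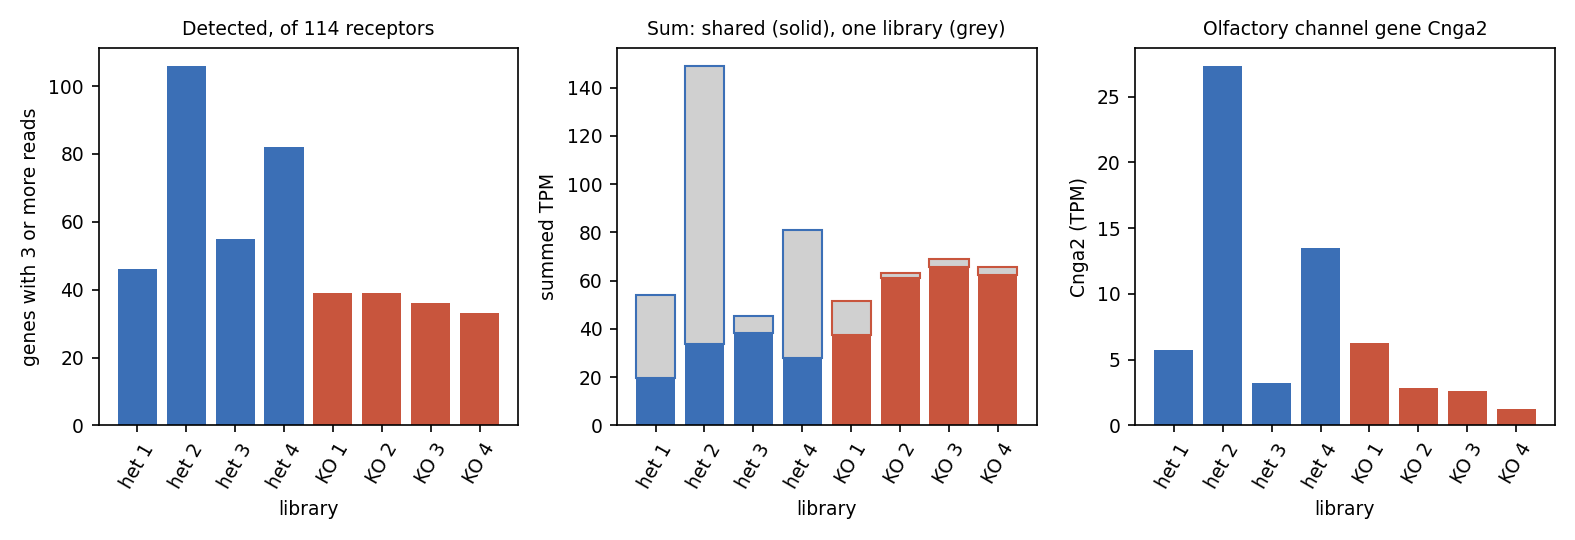
For each library (blue: heterozygous, red: knockout), the number of the 114 receptor genes with at least 3 reads, their summed TPM split into shared genes (solid) and genes carried by 1 library (grey), and the TPM of the olfactory channel gene Cnga2. Heterozygous library 2 is highest in all 3 panels, while the solid part of the sum is highest in knockout libraries 2 to 4.

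No gene for the factors by which olfactory neurons choose and export a receptor was called. All 13 genes of that list were tested: the transcription factors Lhx2, Emx2, Atf5 and Ebf1 to Ebf4, the cofactor Ldb1, the chromatin genes Kdm1a and Lbr, and the export helpers Rtp1, Rtp2 and Reep1. None was called higher or lower, 0 had an unadjusted limma p under 0.05, and their median log2 fold change was −0.11 against 0 over all genes tested. Their summed level was 553 to 1137 TPM in heterozygous and 673 to 1117 TPM in knockout libraries.

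Members lay on 15 chromosomes, with 17 on chromosome 7, 15 on chromosome 2, 12 each on chromosomes 14 and 16, and 11 each on chromosomes 9 and 11. When neighbours under 1 Mb apart were joined, 104 of 114 fell into 26 runs of at least 2. The largest run, 10 genes from Olfr1110 to Olfr1264 (chr2:87133673-90025577), summed to 1.31, 17.4, 0.584 and 6.01 TPM in heterozygous libraries 1 to 4 and to 0.141 ± 0.072 TPM (SD, n = 4) in knockout libraries. The run of 8 from Olfr722 to Olfr745 (chr14:49894258-50643885) was highest in heterozygous library 4, at 12.8 TPM against 0.987 to 4.64 TPM in the other heterozygous libraries, and averaged 0.115 ± 0.065 TPM in knockout libraries. The run of 8 from Olfr175-ps1 to Olfr209 (chr16:58823662-59363993) was at 0.719, 12.0, 1.67 and 4.88 TPM in heterozygous libraries, and 7 of its genes were at 0 in every knockout library. All 26 genes of these 3 runs had a lower knockout mean, as had 90 of the 114 members. The knockout sums of these runs averaged under 0.2 TPM, so their genes entered the set on their heterozygous level alone. These counts describe the set and are no result about position. A run of 4 on chromosome 6 held Olfr447, which rose, beside Olfr449, which was listed at 0 in 3 of 4 knockout libraries.

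No member was called by sex (limma, adjusted over all genes tested), against 0.0426% of all genes. By unadjusted limma p, 8 were under 0.05, 3 of them higher in males, against 2.52% of all genes. That number was 3 with a pseudocount of 0.1, 15 without heterozygous library 3 and 25 with animal series as a term. The matching counts over all 23477 genes tested were 627, 779 and 1340. Olfr513 had the lowest sex p, a male level lower by 1.84 on the log2 scale (SE 0.45, limma adjusted p = 0.620). In the 7100s animals it was called lower in males (log2 fold change −2.50, adjusted p = 0.0497), but both heterozygous animals there are female, so this sets knockout libraries 2 to 4 against knockout library 1 alone. It was also called without heterozygous library 3 (−2.12, adjusted p = 0.0413). Olfr124 was called higher in males without heterozygous library 4 or knockout library 1, and Olfr1509 without knockout library 1. For both, the male heterozygous library 1 was the highest of all 8.

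Just inside the threshold of 0.2 TPM lay Olfr16 (mean 0.203 TPM, the receptor also called MOR23), Olfr818 (0.204), Olfr733 (0.204) and Olfr1342 (0.205). Just outside lay Olfr308 (0.198), Olfr740 (0.197), Olfr923 (0.197) and Olfr1348 (0.197). Olfr16, Olfr818 and Olfr733 were carried by heterozygous library 2. Most members had sequence of their own: a median of 100% of 75-base windows was found in no other annotated gene, 102 of 114 members were at 90% or more, and the lowest was Olfr239 at 38.3%. Exons of 5 members overlapped those of another gene on the same strand.

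Windows of 300 bases around RefSeq starts (GRCm38.p6) were found for 87 of the 114 members. Among the 6 called genes only Olfr1339, Olfr447 and Olfr124 matched, and there the RefSeq start lay 2.36, 2.65 and 5.18 kb downstream of the 5′ end annotated by GENCODE, so these 3 windows are probably not the promoters in use. The homeodomain-type letters TAATTA were in 12.6% of member windows, 17.2% of windows of all Olfr genes and 5.29% of all windows. The letters TATAAA were in 29.9%, 37.1% and 13.6%. Both were searched on both strands. The window of Olfr692, whose RefSeq and GENCODE starts lay 0.1 kb apart, held TAATTA at 2 places.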

How the data were processed

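Vomeronasal organ RNA of 8 mice was poly(A) selected and sequenced as strand-specific paired reads, per the labels' protocols. The authors deposited 1 table of TPM values with 1 column per library, which keeps no depth. The submitters' processing notes name Trim Galore 0.6.5, cutadapt 5.1, STAR 2.7.11b, deepTools 3.5.5 and builds mm10 and GRCm38. The counting program is not given in the sources used here, nor is its handling of reads that match several genes, so levels of near-identical receptors are uncertain. Columns were matched to samples by label, and 0 were left unused.

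Reads were recovered here from the steps between low values, using GENCODE M21 exon lengths. Within 0.05 reads, 97.8% to 98.3% of low values per library were whole, as were 378 of 378 low values of the receptors. Reads served only for floors, read counts and limma-voom. Intervals and floors cover counting error only.

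The 23477 genes averaging 0.2 TPM or more were fitted with limma 3.58.1 in R 4.3.3 (lmFit, eBayes with trend) on log2(TPM + 0.5), with genotype and sex as terms. Benjamini-Hochberg adjustment ran over all of them. The fit was tested on simulated data. With a sex term, the genotype coefficient within the 7100s, or without heterozygous library 1, takes its knockout side from knockout library 1 alone. Without knockout library 1 it takes its heterozygous side from heterozygous library 1 alone. The labels name separate animals as replicates.

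Named genes were every called member, the 10 highest shared members, all class I members, the 10 highest single-library members, the 5 largest rises and falls among shared members without overlap, 4 genes on either side of the threshold and the 3 largest runs. Olfr877, Olfr145, Olfr463, Olfr1361 and Olfr455 were named after their values were seen. The members, lists and tests were chosen with earlier results of these data known. Alternatives were other pseudocounts (0.1 and 1), filters, scalings, variance estimates and designs, the 7100s animals alone, limma-voom, and leaving out each library in turn. Limma-voom without heterozygous library 2 was added after seeing the data. Figures were drawn with matplotlib 3.10.9.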

Additional observations from a re-analysis of the deposited data

Results flagged for a closer look

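In 16 of 60 groups of 4 libraries examined (2 class sums and 28 named genes in both genotypes), 1 library stood apart from the other 3 by Dixon's criterion, which chance meets in about 1 of 20 groups. That rate is no reference for 11 of the 16, whose genes are members that 1 library carried. For class I receptors it was the summed level in knockout library 1, 9.46 TPM, where the next library had 30.1 TPM. In heterozygous library 1 it was Olfr124, at 22.5 TPM with 2.99 TPM next. In heterozygous library 2 it was Olfr309 at 5.73 TPM (next 0.553), Olfr672 at 4.44 TPM (next 0.146), Olfr1110 at 4.08 TPM (next 0.439), Olfr665 at 1.64 TPM (next 0.0265) and Olfr447 at 0.109 TPM (next 0). In heterozygous library 4 it was Olfr727 at 4.68 TPM (next 0.167), Olfr536 at 4.05 TPM (next 0.357) and Olfr258-ps1 at 0.0800 TPM (next 0). In knockout library 1 it was Olfr513, at 4.43 TPM with 0.789 TPM next. In knockout library 4 it was Olfr289-ps1, low at 0.508 TPM (2 reads) with 2.04 TPM (8 reads) next. The rest were traces of 1 or a few reads over libraries at 0: Olfr309 at 0.0253 TPM and Olfr449 at 0.0412 TPM in knockout library 2, and Olfr1509 at 0.0365 TPM and Olfr722 at 0.0574 TPM in knockout library 3.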

How the results depend on the processing

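The calls of Olfr1339 and Olfr447 held in all 21 alternative fits. Over all genes, 118 were called (40 higher, 78 lower), 72 without a filter, 252 in the 7100s animals with the sex term and 182 without it, and 69 to 205 when 1 library was left out, the lowest without heterozygous library 1 and the highest without heterozygous library 4. After median-ratio scaling 24 were higher and 126 lower. Members called by genotype numbered 6, and 3 to 7 with 1 library left out, the 3 without heterozygous library 1. Members called by sex numbered 0, 1 in the 7100s animals with the sex term, and 0 to 2 with 1 library left out. The log2 ratio of class II sums, −0.94, was 0.71 over shared members, 0.095 over members with a mean of at least 0.5 TPM, −1.47 at a mean of at least 0.1 TPM and −1.33 after median-ratio scaling. Of single-library members, 72 of 114, there were 46 with a 75% limit, 12 of 26 at a mean of at least 0.5 TPM and 205 of 274 at a mean of at least 0.1 TPM. The causes were not tested. With the replicate number as a block, 6 members and 119 genes were called. Deviations of same-numbered libraries from their group means correlated at −0.05, 0.05, 0.11 and 0.00. Such values cannot settle whether libraries were handled in pairs. Depth limits statements on genes under 3 reads.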
